A study of Xenopus tropicalis with 27 samples.

Results

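Brains of wildtype, untreated Xenopus tropicalis tadpoles at stage 47 were compared with brains at stage 40, the last and the first stage of a time course of RNA sequencing. Xenopus tropicalis is a diploid clawed frog, and stages follow the standard Xenopus series. The comparison rests on 6 of the 27 libraries of the series, 3 at each stage, chosen by the stage in their labels. The model that tests it was fitted on all 18 untreated libraries, which come 3 each from stages 40, 42, 44, 45, 46 and 47. All 18 carry the label wildtype and received no drug. The other libraries came from stage 46 tadpoles given a drug or DMSO and were not used here. The labels state pooling of 3 brains only for those, and nothing in them ties replicate numbers to a clutch, a day or separate animals. The p-values therefore measure the spread between these libraries, which may be technical.

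Between these stages the frog brain passes from an early larval neural tube, rich in dividing progenitor cells, to the working brain of a feeding tadpole. Progenitors line the ventricle, divide and leave daughter cells that switch on proneural factors, grow axons and dendrites, form synapses and acquire ion channels and peptide transmitters. Glial cells that wrap axons and take up transmitter mature later, and the pituitary and thyroid begin to prepare for metamorphosis.

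Library totals ran from 12.9 to 48.3 M counts over the 18 libraries. The stage 40 libraries held 19, 18.4 and 48.3 M, and the stage 47 libraries held 21, 18.4 and 20.7 M. A floor of 3 counts corresponds to between 0.0649 and 0.169 CPM (counts per M counts of the scaled library size) at stage 40 and between 0.137 and 0.156 at stage 47, and covers counting error only. The 10 most abundant genes took between 7.97% and 8.34% of the counts at stage 40 and between 4.83% and 4.88% at stage 47. On the first principal component, which carried 67.3% of the variance, stage 40 and stage 47 libraries lay at opposite ends with no overlap.

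The label brain was checked against defining markers. All 5 neuronal markers (elavl3, elavl4, snap25, syt1, tubb3) were present in every library, with a summed level of 3460 to 3623 CPM at stage 40 and 2867 to 3038 CPM at stage 47. Of these, elavl4, snap25 and syt1 were higher at stage 47 and elavl3 and tubb3 lower, so the sum gives no common direction. The 4 radial glia markers (sox2, slc1a3, fabp7, vim) summed to 4331 to 5083 CPM at stage 40 and 2403 to 2568 CPM at stage 47. Markers of tissues around the brain were present too. The 2 measured cartilage and notochord markers, col2a1 and acan, summed to 203 to 294 CPM at stage 40 and 152 to 192 CPM at stage 47, nearly all of it col2a1, a collagen of cartilage and notochord. Melanocyte markers (tyr, dct, pmel, tyrp1) summed to 75.7 to 123 CPM at stage 40 and 6.85 to 9.13 CPM at stage 47. Skeletal muscle markers (mylpf, ckm, actn3, tnnt3) summed to 7.72 to 26 CPM at stage 40 and 8.4 to 18.6 CPM at stage 47, and red cell markers (alas2, slc4a1, gata1) to 59.9 to 106 CPM at stage 40 and 44.9 to 62.1 CPM at stage 47. Among the red cell markers slc4a1 was lower at stage 47, and alas2 and gata1 were not called. No defining marker measured in these lists was at 0 in any of the 6 libraries. The parts that these tissues play in the results below were not tested.

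Most genes differed between the stages. Of 16049 genes tested, 6420 (40.0%) were higher at stage 47 and 6553 (40.8%) were lower, at a Benjamini-Hochberg adjusted p under 0.05 in edgeR's quasi-likelihood test. In either direction that is 80.8% of the genes, so a call alone says little about a gene family. Counts of members past a call and a 2-fold change are therefore given as well: 3437 genes (21.4%) were at least 2-fold higher and 2711 (16.9%) at least 2-fold lower. The median log2 fold change over all genes was -0.015, with quartiles at -0.711 and 0.824. Changes of 16-fold or more were found in 258 higher and 110 lower genes. Over all 6 stages, 88.4% of the genes differed somewhere. In 81.7% of the genes, the 3 libraries of one stage lay wholly above the 3 of the other. Of the genes that differed somewhere, 1542 (9.61% of all tested) did so without a call between stage 40 and stage 47.

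In bulk tissue, fewer cells of a type and less RNA per cell cannot be told apart. This holds for every value below. Levels are CPM on library sizes scaled by the trimmed mean of M-values (TMM), without a gene length, so they are compared between stages and never between genes. Folds are ratios of the mean CPM of 3 libraries, and log2 values are fitted log2 fold changes, stage 47 minus stage 40, ± SE with 3 libraries per stage. The SE is approximate. It is the size of the log2 value divided by the square root of the test's F statistic, with the spread estimated over all 18 libraries.

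**Figure D1:**
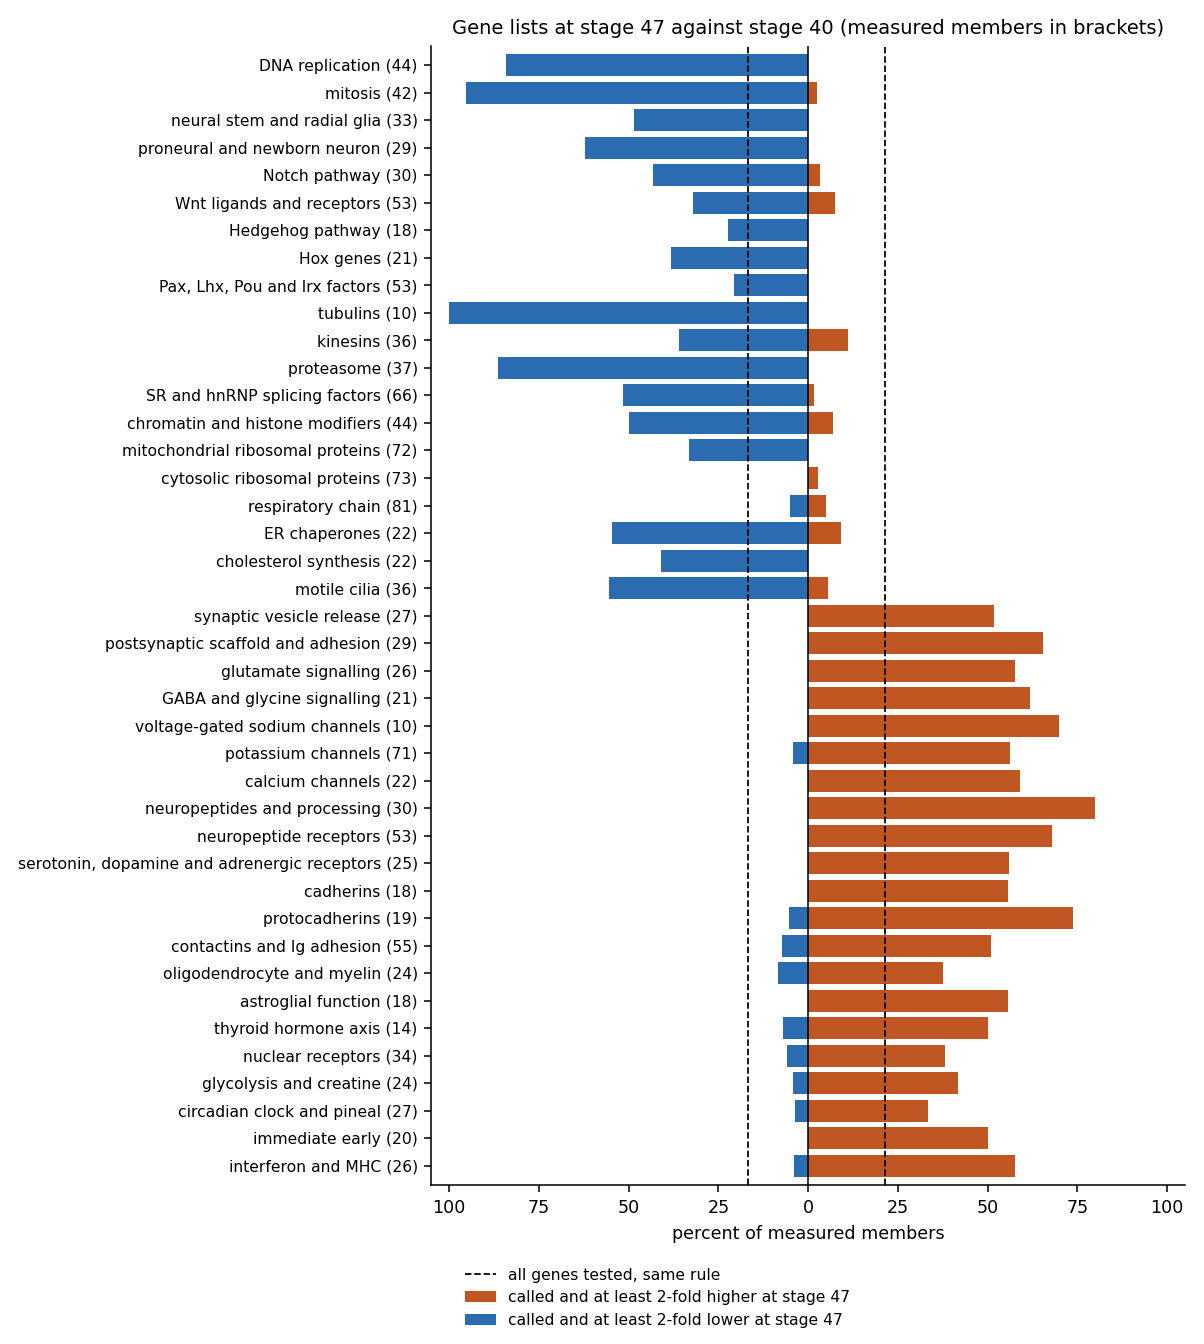
Percent of measured members that were called and at least 2-fold higher (right) or lower (left) at stage 47 than at stage 40, for 41 gene lists with the number of measured members in brackets. Dashed lines mark the same shares over all genes tested, 21.4% and 16.9%; all 10 tubulins stand at least 2-fold lower, and 24 of 30 genes of neuropeptides and their processing at least 2-fold higher.

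Genes of cell division were lower at stage 47. Of 42 measured genes of mitosis (cyclins, kinases, spindle and kinetochore proteins), 41 fell, 40 of them at least 2-fold, and the median log2 fold change was -4.02. The exception was racgap1.2, a copy of a cytokinesis regulator, which rose from 3.22, 2.82 and 2.68 CPM to 8.18, 8.4 and 8.34 CPM. Of 44 DNA replication genes, 43 fell, 37 at least 2-fold, with a median of -2.40.

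ccnb1.2, a cyclin B that drives entry into mitosis, measured 104, 90.2 and 95.5 CPM at stage 40 and 2.42, 3.11 and 2.73 CPM at stage 47. Its log2 fold change was -5.13 ± 0.10 (adjusted p = 5.24e-21), and no stage 47 library came near a stage 40 library. plk1, a kinase of mitotic spindle assembly, fell from 111, 111 and 114 CPM to 5.35, 5.34 and 5.01 CPM. aurkb, the chromosomal passenger kinase, fell from 69.8, 61.9 and 64 CPM to 3.02, 2.49 and 2.6 CPM. The spread within either stage was small beside both differences. top2a, the topoisomerase that untangles chromosomes, measured 150.1, 163 and 179 CPM at stage 40 and 9, 8.09 and 7.97 CPM at stage 47 (log2 -4.30 ± 0.10, adjusted p = 1.81e-20). foxm1, a transcription factor of late cell cycle genes, fell 18.6-fold, to 2.38, 1.61 and 1.58 CPM. mki67, the antigen used to mark cycling cells, fell less, from 259, 281 and 289 CPM to 73.2, 71.2 and 64.1 CPM, a 3.98-fold change.

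Replication genes followed. mcm5, a subunit of the replicative helicase, measured 106, 115 and 105 CPM at stage 40 and 5.57, 6.12 and 6.03 CPM at stage 47 (log2 -4.20 ± 0.10, adjusted p = 1.83e-20). rrm2.2, a ribonucleotide reductase subunit that supplies DNA precursors, fell from 172, 158 and 142 CPM to 6.76, 6.17 and 6.67 CPM. chaf1b, which loads histones onto new DNA, fell 23.8-fold. None of these genes showed overlap between the stages. pcna, the sliding clamp that also serves repair, fell 7.55-fold, from 237, 235 and 226 CPM to 32.3, 32.8 and 27.3 CPM.

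The losses of these lists came late. The mean log2 CPM of the mitosis list was 5.54 at stage 40, 5.45 at stage 42, 5.56 at stage 44, 5.32 at stage 45, 4.89 at stage 46 and 1.97 at stage 47. That of the replication list was 5.43 at stages 40 and 42, 5.62 at stage 44, 5.38 at stage 45, 4.81 at stage 46 and 3.04 at stage 47. Both lists thus stayed near their first level until stage 45 and dropped most between stages 46 and 47.

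**Figure D2:**
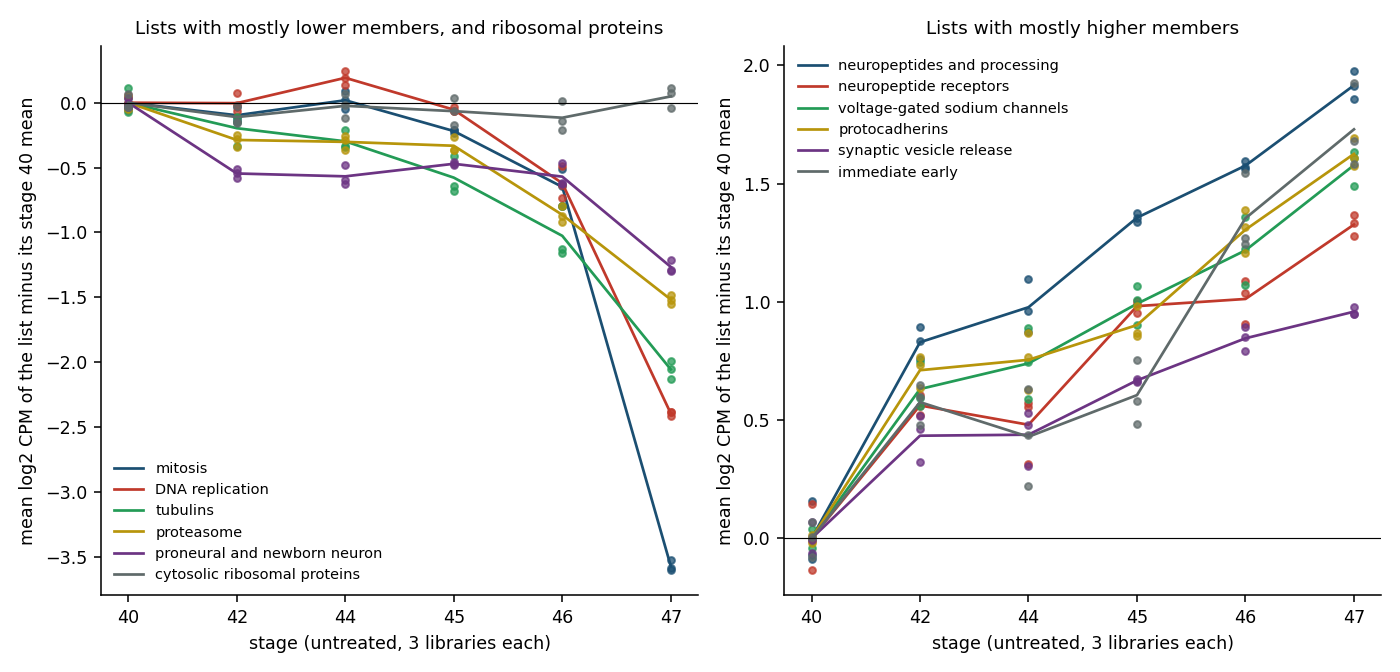
Mean log2 CPM of 12 gene lists minus the list's mean at stage 40, by stage, each point 1 library and each line the mean of 3 libraries. In the left panel the mitosis and replication lists drop most after stage 46 while cytosolic ribosomal proteins stay near 0; in the right panel the 6 lists are already higher at stage 42 and highest at stage 47.

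Over all genes, the means placed the largest steps as follows. Among the 3437 genes at least 2-fold higher at stage 47, the step from stage 40 to 42 was the largest for 1560 (45.4%), and the step from stage 46 to 47 for 845 (24.6%). Among the 2711 genes at least 2-fold lower, the step from stage 46 to 47 was the largest for 1474 (54.4%), that from stage 45 to 46 for 830 (30.6%), and that from stage 40 to 42 for 284 (10.5%). The step from stage 42 to 44 was the largest for 3.29% of the higher and 1.51% of the lower genes. These steps are descriptions of means and were chosen per gene, with no test.

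Genes of progenitors and newborn neurons were mostly lower. Of 33 neural stem and radial glia genes, 29 fell and 2 rose, 16 and 0 of them at least 2-fold, with a median of -0.92. nes, the intermediate filament nestin, fell from 257, 242 and 234 CPM to 38.8, 40.8 and 36.5 CPM (log2 -2.66 ± 0.09, adjusted p = 6.21e-18). msi1, an RNA-binding protein of neural stem cells, fell from 538, 505 and 520.2 CPM to 136, 144 and 147 CPM. vim, the filament vimentin of radial glia, fell 3.61-fold. sox2, a transcription factor that keeps progenitors undifferentiated, fell less, from 344, 329.8 and 309 CPM to 178, 174 and 184 CPM, a 1.83-fold change with no overlap. lin28a, an RNA-binding protein of early progenitors that blocks let-7 maturation, fell 8.76-fold to 2.92, 2.49 and 3.15 CPM. The 2 members that rose, fgfr3 and zic2, did so by 1.2-fold each.

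The proneural list held 29 measured genes, of which 25 fell, 18 at least 2-fold, and 3 rose, none 2-fold. neurod4, a bHLH factor of cells leaving the cycle, measured 65.2, 60.6 and 60.8 CPM at stage 40 and 6.08, 7.31 and 6.77 CPM at stage 47 (log2 -3.21 ± 0.10, adjusted p = 2.78e-18). sox11, a factor of immature neurons, fell from 796, 782 and 779.7 CPM to 189, 186 and 196 CPM. Both were far outside the spread between libraries. neurod2 and neurod6, relatives of neurod4 found in maturing forebrain neurons in mammals, rose instead, from 58.3, 73.9 and 61 to 82.8, 102 and 86.3 CPM and from 39.1, 48 and 41.2 to 53.9, 61.9 and 61.5 CPM.

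Ligands, receptors and targets of Notch, which keeps neighbouring progenitors from differentiating, shared the direction of these lists. Of 30 genes, 24 fell, 13 at least 2-fold, and 4 rose. dlc, a Delta ligand, fell from 171, 155 and 159 CPM to 18.2, 21.4 and 21.6 CPM (log2 -2.99 ± 0.09, adjusted p = 3.47e-18). The receptors notch1 and notch3 fell 3.77-fold and 2.9-fold. dner, an atypical ligand that is found on neurons, went the other way and rose from 229, 255 and 233 CPM to 594, 646 and 563 CPM.

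Morphogen pathways were less uniform. Of 18 Hedgehog genes, 14 fell, 4 at least 2-fold, and 2 rose. The ligand shh fell from 55.4, 51.7 and 52.1 CPM to 33.3, 32.5 and 32.5 CPM, and gli3, the factor that mainly represses the targets, fell 3.07-fold. The receptor ptch1 was not called (log2 0.12 ± 0.08, adjusted p = 0.166), with 103, 122 and 107 CPM at stage 40 and 120.2, 119.8 and 122 CPM at stage 47, which overlap. With upper-quartile scaling (0.23), a mean of at least 5 CPM (0.23) or without stage 40 replicate 2 (0.20) it was called higher. The same held in limma on the deposited quantile-normalized values (0.22). Among 53 Wnt ligands and receptors, 35 fell, 17 at least 2-fold, and 7 rose, 4 at least 2-fold. The receptor fzd2 fell 4.51-fold, whereas fzd9 rose 2.27-fold and the secreted modulator dkk2 rose 4.26-fold from under 1 CPM. Of 27 FGF genes, 15 rose and 7 fell; the receptor fgfr1 fell from 208, 194 and 207 CPM to 85.2, 80.7 and 85.3 CPM, and the feedback inhibitor spry4 rose from 9.11, 9.65 and 7.46 CPM to 40.5, 43 and 46 CPM. Of 50 BMP and TGF-beta genes, 20 were higher (40%) and 21 lower (42%), close to the 40.0% and 40.8% over all genes.

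Transcription factors that lay out the brain's regions fell in most cases. Of 53 Pax, Lhx, Pou and Irx family and related factors, 37 fell and 6 rose, 11 and 0 of them at least 2-fold. Their median was -0.61. Over all genes, 16.9% were at least 2-fold lower and 21.4% at least 2-fold higher. Hox genes, which pattern the hindbrain and spinal cord, fell in 14 of 21 and rose in 1. The stage 40 libraries lay far apart on this list, with a mean log2 CPM of 1.845, 2.778 and 3.222, and overlapped the stage 47 libraries at 1.999, 1.598 and 1.504. hoxc3 fell most among those named, from 30.6, 23.2 and 28.3 CPM to 3.06, 3.99 and 3.66 CPM (log2 -2.94 ± 0.13, adjusted p = 6.93e-16). hoxa3 rose 1.37-fold. The midbrain-hindbrain boundary list fell in 9 of 14, led by the ligand wnt1 (28.6, 21.6 and 22.4 CPM against 6.81, 4.46 and 7.46 CPM), whereas lmx1b.2 rose 1.89-fold and its copy lmx1b.1 fell 1.95-fold. Telencephalon factors fell in 12 of 19, only 2 of them at least 2-fold, and diencephalon and hypothalamus factors in 12 of 20. lhx6, a factor of interneurons born in the ventral telencephalon of mammals, rose from 12.7, 20.1 and 13.5 CPM to 23.3, 25.4 and 26.1 CPM.

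All 10 measured tubulins fell at least 2-fold, by log2 values between -2.80 and -1.01. tuba1a, an alpha tubulin of growing neurons, measured 8215, 8108 and 7942 CPM at stage 40 and 2492, 2716 and 2503 CPM at stage 47 (log2 -1.65 ± 0.06, adjusted p = 1.54e-17). tubb2b, a beta tubulin of young neurons, fell from 3043, 2873 and 2794 CPM to 617, 698 and 646 CPM. tubb3, the tubulin commonly used to mark neurons, fell from 1628, 1549 and 1527 CPM to 607, 655 and 603 CPM. Tubulin genes are near-identical in their coding sequence, so reads may be shared among copies. The 10 values may therefore not be independent of one another, and this was not tested. elavl3, an RNA-binding marker of young neurons, fell 2.26-fold, and dcx, a microtubule protein of migrating neurons, fell 1.67-fold.

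The axonal cytoskeleton list, which includes 3 of the tubulins, was split. Of 30 genes, 15 rose, 7 at least 2-fold, and 12 fell, 4 at least 2-fold, with a median of 0.24. The called shares, 50% and 40%, stand beside 40.0% and 40.8% over all genes. nefl, the light neurofilament subunit of large axons, measured 23.9, 25.9 and 34.6 CPM at stage 40 and 371, 358 and 358 CPM at stage 47 (log2 3.66 ± 0.11, adjusted p = 7.66e-17). nefh, the heavy subunit, rose from 20.3, 18.2 and 24.2 CPM to 447, 427 and 458 CPM, a 21.2-fold change. The microtubule proteins mapt and map2 stayed close to their first level. mapt rose 1.29-fold, and map2, with 877, 871 and 845 CPM against 883, 892 and 943 CPM, was not called (adjusted p = 0.345), although it was with upper-quartile scaling (log2 0.18). gap43, a protein of growth cones, fell 1.2-fold. Of 36 kinesins, the motors that walk on microtubules, 21 fell, 13 at least 2-fold, and 10 rose. kif11, a motor of the mitotic spindle, fell from 69.2, 71.2 and 69 CPM to 3.47, 3.48 and 3.48 CPM. kif5a, a motor of axonal transport, rose from 253, 285 and 272 CPM to 551, 548 and 539 CPM.

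**Figure D3:**
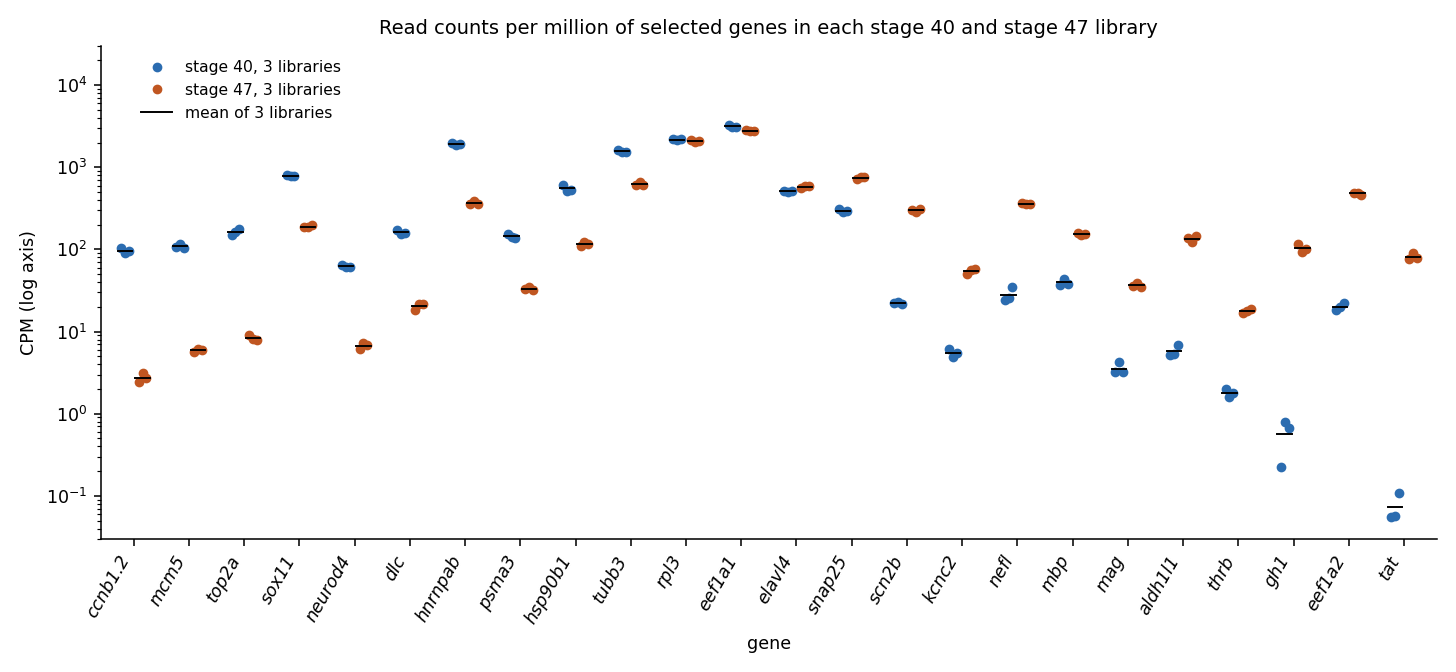
CPM on a log axis of 24 genes in each of the 3 stage 40 and 3 stage 47 libraries, with a line at each mean. In all genes shown except rpl3 the libraries of the stages do not overlap; rpl3 has 2204, 2127 and 2205 CPM against 2158, 2056 and 2083 CPM.

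Synaptic genes were higher at stage 47 as whole lists. Of 27 genes of vesicle release, 25 rose, 14 at least 2-fold, and 1 fell, with a median of 1.06. Of 29 postsynaptic scaffold and adhesion genes, 26 rose, 19 at least 2-fold, and 2 fell. snap25, a SNARE protein of vesicle fusion, measured 308, 289 and 289.9 CPM at stage 40 and 717, 772 and 755 CPM at stage 47 (log2 1.34 ± 0.06, adjusted p = 3.46e-15). syt1, the calcium sensor of release, rose from 203, 204 and 193 CPM to 575, 615 and 595 CPM. Neither gene overlapped between the stages. cplx1 and cplx2, complexins that clamp and trigger fusion, moved in opposite directions: cplx1 rose from 274, 262 and 262 CPM to 721, 746 and 798 CPM, and cplx2 fell from 210.3, 198 and 198 CPM to 149, 147 and 164 CPM. On the postsynaptic side, nptx2, a pentraxin that gathers AMPA receptors, rose from 18.3, 22.1 and 19.5 CPM to 99.4, 102 and 93.3 CPM. homer3, a scaffold of metabotropic glutamate receptors, fell 1.94-fold.

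Of 26 glutamate signalling genes, 23 rose and 0 fell, 15 at least 2-fold. grin1, the obligatory NMDA receptor subunit, rose from 160.2, 191 and 184 CPM to 819, 771 and 675 CPM (log2 2.08 ± 0.11, adjusted p = 7.33e-12). Among its partner subunits, grin2a rose 3.22-fold, from 14, 12.2 and 11.2 CPM to 38, 43.5 and 39.3 CPM, and grin2b rose 1.74-fold, from 103, 134 and 112 CPM to 194, 206 and 204 CPM. The vesicular transporters that define glutamatergic neurons changed much less: slc17a6 rose 1.33-fold and slc17a7 1.21-fold. slc1a6, a glutamate uptake carrier of cerebellar Purkinje cells in mammals, rose 13-fold, from 15.1, 22 and 15 CPM to 224, 242 and 212 CPM.

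Genes of inhibitory transmission rose as well. Of 21 GABA and glycine genes, 20 rose and 0 fell, 13 at least 2-fold. gad2, an enzyme that makes GABA, rose from 121, 137 and 112 CPM to 534, 531 and 496 CPM (log2 2.08 ± 0.09, adjusted p = 1.42e-14), and gad1.1, its relative, rose 2.5-fold. slc32a1, the vesicular GABA and glycine transporter, rose 1.26-fold, from 387, 366 and 363 CPM to 465, 469 and 477 CPM. glrb, the beta subunit of the glycine receptor, rose 3.24-fold. gabrd, a subunit of GABA receptors outside synapses, had no count in any of the 3 stage 40 libraries and 2.65, 2.39 and 2.22 CPM at stage 47, at least 66.1-fold higher against a floor of 3 counts over the 3 stage 40 libraries.

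All 10 voltage-gated sodium channel genes rose, 7 at least 2-fold. The largest rise was that of scn2b, an accessory beta subunit, from 22.3, 22.9 and 21.9 CPM to 302, 287 and 308 CPM (log2 3.74 ± 0.09, adjusted p = 1.99e-19). Of the pore-forming subunits, scn2a rose 4.8-fold, scn3a rose from 187, 209.7 and 204 CPM to 538, 519 and 545 CPM, and scn8a rose 2.38-fold. The call of scn4a, one of the 7, is uncertain. It measured 0.611, 0.226 and 0.411 CPM at stage 40 and 1.28, 0.571 and 1.21 CPM at stage 47, which overlap, with a log2 fold change of 1.29 ± 0.48 (adjusted p = 0.0174). It was not called without stage 40 replicate 2 (1.08) or 3 (1.30), without stage 47 replicate 1 (1.10) or 3 (1.16), or in limma on the deposited quantile-normalized values (0.13). The deposited values are log2(CPM + 1), and the added 1 shrinks differences at low CPM, so the size of 0.13 is not comparable with 1.29. The call of scn1a rested on 1 library: it measured 164, 172 and 162 CPM at stage 40 and 187, 184 and 220.1 CPM at stage 47, with a log2 fold change of 0.25 ± 0.09, and without stage 47 replicate 3 the value was 0.16 and not called.

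Of 71 potassium channel genes, 55 rose, 40 at least 2-fold, and 8 fell, 3 at least 2-fold. kcnc2, a channel of fast-spiking neurons, rose from 6.11, 4.91 and 5.54 CPM to 50, 56.7 and 58.4 CPM (log2 3.31 ± 0.11, adjusted p = 4.75e-18). The axonal channels kcna1 and kcna3 rose 3.97-fold and 6.46-fold. Against this, the background potassium channel kcnk5 fell 2.01-fold, from 68, 70 and 64.7 CPM to 36.8, 32.1 and 31.9 CPM, and kcnj11, the pore of an ATP-sensitive channel, fell 1.95-fold. Calcium channel genes rose in 19 of 22, 13 at least 2-fold, and none fell, with cacnb2, a beta subunit, up from 27.9, 27.3 and 28.6 CPM to 110.0, 109 and 109 CPM.

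Neuropeptides and the enzymes that cut and amidate them had the highest median of the lists of neuronal function, 1.97. Of 30 genes, 28 rose, 24 at least 2-fold, and 0 fell. pcsk1, a convertase that cuts prohormones, rose from 44.6, 48.9 and 43 CPM to 264, 272 and 256 CPM (log2 2.54 ± 0.09, adjusted p = 5.75e-17), and pam, the amidating enzyme, rose from 142, 148 and 138 CPM to 464, 495 and 469 CPM. Neither overlapped. Among peptides, agrp, an appetite-promoting peptide of the hypothalamus in mammals, rose from 0.556, 1.98 and 0.865 CPM to 14.6, 15.1 and 13.3 CPM. npy, which also promotes feeding in mammals, rose from 100.5, 106 and 82.4 CPM to 340.4, 393 and 379 CPM, and the satiety peptide cck rose 8.14-fold. The somatostatin gene sst.1 rose 6.99-fold, vip 7.37-fold and tac1, the substance P precursor, 3.94-fold. crh, which in tadpoles drives both stress and thyroid axes, rose from 0.389, 0.621 and 0.238 CPM to 1.64, 1.76 and 2.36 CPM. oxt and avp had their highest mean at stage 45 rather than at stage 47: oxt went from 3.11, 9.09 and 5.88 CPM at stage 40 through a mean of 41.2 CPM at stage 45 to 11.6, 11.1 and 10.2 CPM.

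Receptors for these and other signals were mostly higher. Of 53 neuropeptide receptors, 47 rose, 36 at least 2-fold, and 1 fell, npy2rl, by 1.55-fold. adcyap1r1, the receptor of the peptide PACAP, rose from 128, 144 and 119 CPM to 435, 444 and 402 CPM (log2 1.72 ± 0.07, adjusted p = 1.21e-16). Of 25 serotonin, dopamine and adrenergic receptors, 19 rose, 14 at least 2-fold, and 0 fell. htr2c, a serotonin receptor, rose from 1.11, 1.19 and 0.887 CPM to 13.9, 16.6 and 14.3 CPM. Nicotinic and muscarinic receptors rose in 8 of 11 and fell in 1: chrna7, a calcium-permeable nicotinic subunit, rose 4.14-fold, and chrna5, an accessory subunit, fell 1.82-fold. Of the transmitter enzymes, tph2 (serotonin) rose from 8, 6.26 and 3.72 CPM to 25.2, 25.8 and 22.9 CPM, th (catecholamines) rose 3.37-fold and chat (acetylcholine) 3.97-fold. nr4a2 and pitx3, factors of midbrain dopamine neurons in mammals, fell 1.42-fold and 1.98-fold.

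Adhesion genes also rose in most members. Protocadherins rose in 16 of 19, 14 at least 2-fold, cadherins in 13 of 18, 10 at least 2-fold, and contactins and other immunoglobulin and leucine-rich adhesion proteins in 46 of 55, 28 at least 2-fold. cntn2, a contactin of myelinated axons, rose from 1.83, 2.26 and 2.77 CPM to 41.1, 39.6 and 38.4 CPM (log2 4.05 ± 0.14, adjusted p = 2.03e-17). pcdh9 rose 21.9-fold, and cdh22 from 15.1, 18.6 and 16.2 CPM to 122, 119.5 and 118 CPM. cdh2, the N-cadherin of the neuroepithelium, fell from 428, 405 and 408 CPM to 216, 222 and 203 CPM, without overlap. In axon guidance families the calls went both ways, beside 40.0% higher and 40.8% lower over all genes. Semaphorins, plexins and neuropilins had 11 higher (40.7%) and 9 lower (33.3%) of 27. Ephrins and Eph receptors had 6 higher (33.3%) and 10 lower (55.6%) of 18. hapln4, a link protein of the matrix around nodes and synapses, had 1 count in all 3 stage 40 libraries together and 5.94, 7.47 and 8.53 CPM at stage 47.

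Oligodendrocyte genes went both ways. Of 24 measured, 13 rose, 9 at least 2-fold, and 7 fell, 2 at least 2-fold. mbp, myelin basic protein, rose from 36.7, 44.2 and 38 CPM to 159.7, 152 and 152 CPM (log2 1.97 ± 0.07, adjusted p = 2.03e-17), and mag, the glycoprotein next to the axon, rose from 3.22, 4.23 and 3.18 CPM to 35.6, 39.3 and 34.4 CPM. Both were separate between the stages. cntnap1, the partner of contactins on myelinated axons, rose 11-fold. myrf, a transcription factor of myelin genes, rose from 1.06, 1.58 and 1.45 CPM to 3.56, 2.44 and 2.87 CPM. sox10, the lineage factor, was not called (15.3, 12.6 and 15 CPM against 12.5, 12.5 and 12.7 CPM, adjusted p = 0.236), gpr17, a receptor of precursors, fell 1.75-fold, and nkx6-2 fell 1.82-fold.

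Astroglial function genes, in frogs carried largely by radial glia, rose in 16 of 18, 10 at least 2-fold. aldh1l1, a folate enzyme used to mark astrocytes in mammals, rose from 5.17, 5.31 and 6.92 CPM to 136, 123 and 146 CPM (log2 4.49 ± 0.14, adjusted p = 2.6e-17). clu, a secreted chaperone, rose 16.1-fold and slc4a4, a bicarbonate carrier, 7.19-fold. slc1a2, a glutamate uptake carrier, rose 1.4-fold, from 1063, 1135 and 1084 CPM to 1628, 1533 and 1438 CPM. The 2 members that fell did so by little: glul, glutamine synthetase, had a log2 fold change of -0.30 ± 0.09, which was not called with upper-quartile scaling (-0.19), and slc1a3, the other main glutamate carrier, had -0.20 ± 0.07, which turned to 0.02 in limma on the authors' deposited quantile-normalized values. Without stage 40 replicate 1 (-0.08) or stage 47 replicate 2 (-0.18) slc1a3 was not called, so its direction is uncertain.

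Proteasome, splicing factor and chaperone lists were mostly lower. All 37 proteasome genes fell, 32 at least 2-fold, with a median of -1.60. psma3, a core subunit, measured 156, 140.1 and 139 CPM at stage 40 and 32.9, 34.7 and 32 CPM at stage 47 (log2 -2.12 ± 0.06, adjusted p = 5.94e-19), and psmd6, a subunit of the regulatory cap, fell from 348, 337 and 349 CPM to 70.4, 78.4 and 69.2 CPM. Of 66 SR, hnRNP and other splicing factors, 56 fell, 34 at least 2-fold, and 6 rose. hnrnpab fell from 1994, 1883 and 1918 CPM to 358, 389.7 and 357 CPM, far beyond its spread. ptbp1, a repressor of neuronal exons, fell 3.83-fold. A separate list of 26 neuronal RNA-binding factors went both ways, with 10 higher (38.5%) and 13 lower (50%). Of these, 6 and 5 changed at least 2-fold. The called shares over all genes were 40.0% and 40.8%. celf4 and mbnl2, RNA-binding proteins of mature neurons, rose 4.11-fold and 3.28-fold. ER chaperones fell in 15 of 22, 12 at least 2-fold: hspa5, the ER Hsp70, fell from 605, 585 and 603 CPM to 129.7, 143 and 110.1 CPM, and manf 7.74-fold. ero1a, an oxidase that forms disulfide bonds, rose 4.44-fold. Of 80 heat shock proteins and cochaperones, 52 fell, 29 at least 2-fold, and 16 rose. The cytosolic chaperonin subunit cct2 fell from 543, 495 and 492 CPM to 101, 108 and 99.6 CPM.

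Cytosolic ribosomal proteins changed little with TMM scaling. Of 73, 7 were called higher and 14 lower, and 2 and 0 of them changed at least 2-fold. Their median was -0.03, and its sign is not settled by these data. With upper-quartile scaling it was 0.079, with 25 higher and 3 lower, and without stage 40 replicate 3 it was 0.023, with 13 higher and 6 lower. The member rpl3 had -0.05 as reported and 0.45, called higher, in limma on the deposited quantile-normalized values. The 2 members that changed at least 2-fold were low copies of the family, rpl3l (0.167, 0.169 and 0.216 CPM against 4.07, 3.84 and 4.54 CPM) and rps27l. Of the mitochondrial ribosomal proteins, 63 of 72 fell, 24 at least 2-fold, with a median of -0.80. mrpl12 fell from 68.2, 64.1 and 67.9 CPM to 9.73, 8.97 and 8.44 CPM (log2 -2.88 ± 0.08, adjusted p = 6.34e-19). Respiratory chain genes fell in 51 of 81 and rose in 18, but only 4 changed at least 2-fold in each direction.

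Of 59 translation factors, 16 rose, 4 at least 2-fold, and 36 fell, 16 at least 2-fold. The related copies that follow were chosen after their values were seen. eef1a2, the translation elongation factor found in mammalian neurons and muscle, rose from 18.6, 19.8 and 22.2 CPM to 488, 488 and 465 CPM (log2 4.56 ± 0.08, adjusted p = 2.75e-21). eef1a1o, an oocyte-type copy, fell from 130.3, 139 and 121 CPM to 37.2, 29.9 and 31.3 CPM. The general copy eef1a1 went from 3228, 3085 and 3121 CPM to 2854, 2753 and 2734 CPM, a log2 value of -0.18 ± 0.06 that reversed to 0.49 in limma on the deposited quantile-normalized values and was not called without stage 40 replicate 1 (-0.14). eef2.2 rose 16.5-fold, from 66.6, 77.5 and 79.2 CPM to 1265, 1194 and 1219 CPM, and its copy eef2.1 rose 1.19-fold. The RNA helicase eif4a1 fell from 1479, 1427 and 1439 CPM to 220.3, 241 and 206 CPM, and its relative eif4a2 rose from 107, 99 and 92.6 CPM to 199, 201 and 188 CPM. Among subunits of cytochrome c oxidase, cox4i2 rose 6.31-fold and cox4i1 fell 1.56-fold, and cox5b.2 rose 16.7-fold and cox5b.1 fell 1.37-fold. Such copies may share reads, and the sources used here do not say how shared reads were counted.

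Chromatin genes were mostly lower. Of 44, 33 fell, 22 at least 2-fold, and 5 rose. ezh2, the histone methyltransferase of Polycomb, fell from 208, 193 and 185 CPM to 27.6, 29.8 and 28.7 CPM (log2 -2.77 ± 0.06, adjusted p = 1.81e-20), and the remodeler smarca5 fell 8.83-fold. hdac1, a histone deacetylase, fell from 404, 377 and 367 CPM to 70.8, 68.2 and 64.4 CPM. chd5, a remodeler of neurons, rose from 55.6, 62.2 and 60.7 CPM to 264, 269 and 285 CPM. Between related enzymes, smarca4 fell 2.14-fold and smarca2 rose 1.86-fold, hdac5 rose 3.51-fold, and the DNA methyltransferase dnmt1 fell 1.53-fold while dnmt3a rose from 354, 396 and 435 CPM to 765, 724 and 723 CPM. cbx7, a Polycomb reader that is not among these 44 genes, rose 72.6-fold, from 3.06, 2.6 and 2.64 CPM to 195, 187 and 221 CPM.

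**Figure D4:**
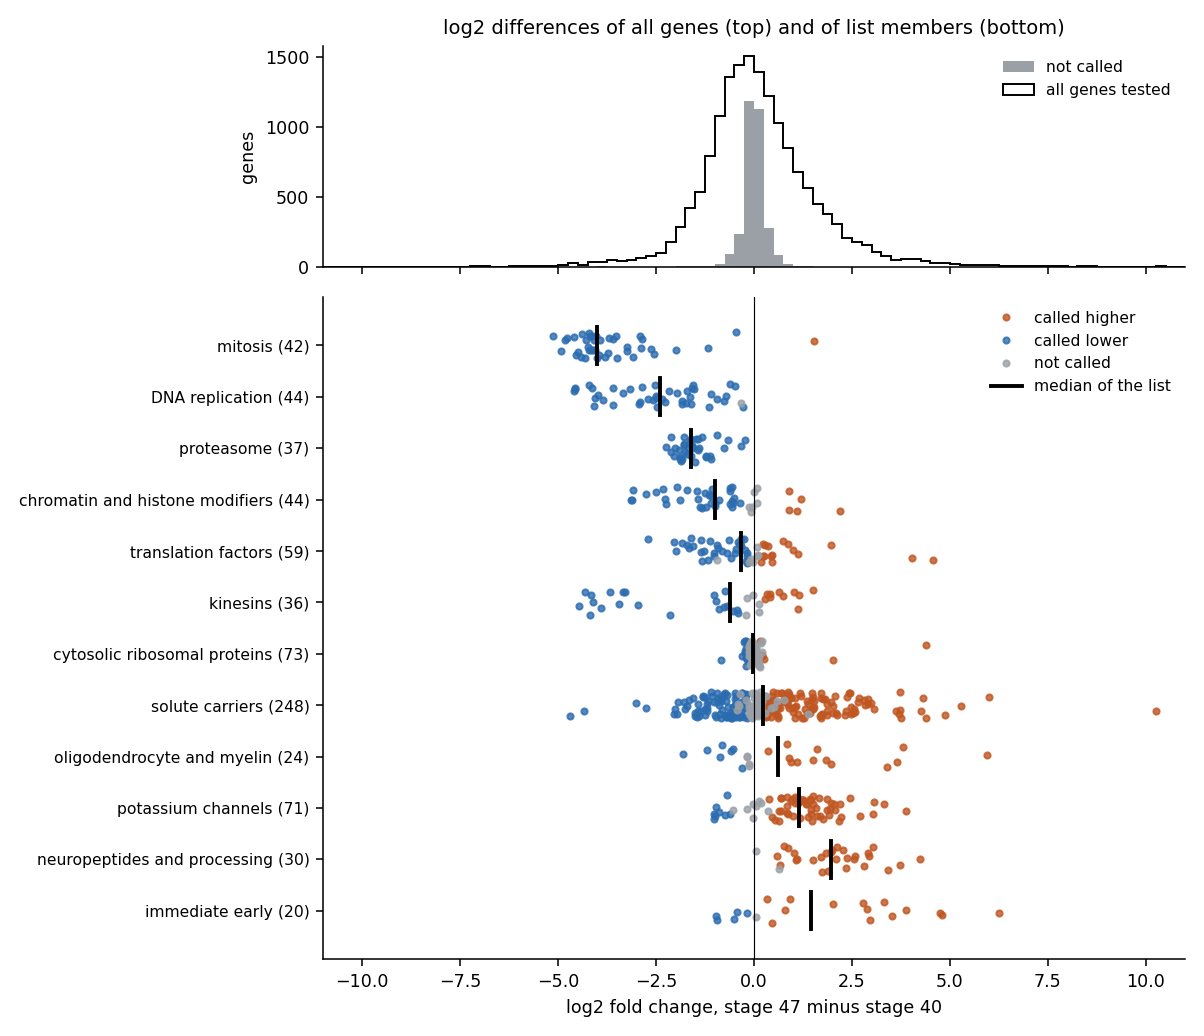
Top, histogram of log2 fold changes, stage 47 minus stage 40, over 16049 genes, with uncalled genes in grey. Bottom, each member of 12 lists as a point, coloured by its call, with the list's median as a bar; mitosis lies near -4.02, cytosolic ribosomal proteins near 0 and neuropeptides near 1.97, and kinesins fall into a deep group and a group near 0.

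Hormone axes changed in part. gh1, growth hormone, rose from 0.222, 0.79 and 0.67 CPM to 115, 93.3 and 102 CPM (log2 7.43 ± 0.97, adjusted p = 1e-05), and prl.1, a prolactin, from 0, 0.113 and 0.0433 CPM to 9.32, 10.7 and 13.2 CPM. tshb, the beta subunit of thyrotropin, rose from 0.722, 0.395 and 0.519 CPM to 7.13, 6.12 and 9.97 CPM, and cga, its alpha partner, rose 2.99-fold. Each of these was separate between the stages. lhb, the beta subunit of luteinizing hormone, fell 2.51-fold, and pomc, the corticotropin precursor, was not called (28.7, 69.2 and 61.1 CPM against 132, 134 and 137 CPM, adjusted p = 0.0901). The pomc libraries did not overlap, and a fit on only stages 40 and 47 called it (log2 1.34). On the list of 13 pituitary genes the stage 44 libraries lay far apart, with a mean log2 CPM of 2.134, 2.669 and 0.612. The main fit takes its spread from all 18 libraries, these included. Why they differ was not tested. The pituitary factors pitx1 and lhx4 fell 2.55-fold and 1.75-fold, and pou1f1, which drives growth hormone and prolactin genes in mammals, was not called (2.61, 3.1 and 2.57 CPM against 4.43, 2.65 and 3.94 CPM, adjusted p = 0.43).

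Of 14 thyroid hormone axis genes, 9 rose, 7 at least 2-fold, and 4 fell. thrb, a thyroid hormone receptor that is itself a target of the hormone in tadpoles, rose from 2, 1.58 and 1.77 CPM to 17, 18 and 18.8 CPM (log2 3.33 ± 0.13, adjusted p = 1.9e-16). thra, the other receptor, rose from 1.28, 0.734 and 1.79 CPM to 3.43, 3.32 and 4.73 CPM. trh, the releasing peptide, rose 4.16-fold. dio2, the enzyme that activates the hormone, fell 1.68-fold after a higher mean of 44.8 CPM at stage 44, and dio3, which inactivates it, rose 1.8-fold, a call lost in limma on the deposited quantile-normalized values (0.11, on the log2(CPM + 1) scale). klf9, another direct target in tadpoles, was not called (1.61, 1.81 and 2.81 CPM against 2.38, 3.01 and 2.64 CPM, adjusted p = 0.22), although without stage 40 replicate 3 its value was 0.66 and called.

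Immediate early genes, which neurons switch on within minutes of activity, were mostly higher. Of 20, 14 rose, 10 at least 2-fold, and 5 fell, none 2-fold. npas4, a factor induced by neuronal calcium entry, rose from 1.33, 2.93 and 2.47 CPM to 55.3, 80.7 and 57.2 CPM (log2 4.81 ± 0.32, adjusted p = 3.14e-09). arc, a protein of active synapses, rose from 5.72, 5.81 and 5.43 CPM to 71.1, 98.7 and 78.7 CPM, and fos rose from 4.5, 6.6 and 5.77 CPM to 46.8, 62 and 60.1 CPM. In each, the lowest stage 47 library lay well above the highest stage 40 library. egr1 rose 7.87-fold and egr4 26.6-fold. ier5 and btg2 fell 1.91-fold and 1.98-fold. The labels do not describe how or when in the day the brains were taken. Of 27 circadian and pineal genes 19 rose and 5 fell, with nr1d1 and nr1d2, repressors of the clock, up 4.53-fold and 6.77-fold, per1 up from 12.7, 16.3 and 19.1 CPM to 70.7, 62.3 and 68 CPM, and asmt, the last enzyme of melatonin synthesis, down 3.23-fold.

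Of 24 liver and gut genes sought, only 3 were measured, and of these 0 rose and 2 fell. So few members give no direction for liver and gut genes as a group. serpina1 fell from 9.17, 2.54 and 4.35 CPM to 0.0914, 0.104 and 0 CPM, vil1 fell 2.38-fold, and apoa1 was not called (2.06, 3.27 and 2.57 CPM against 2.51, 1.56 and 2.64 CPM). Metabolic enzymes, carriers and secreted proteins were found among the 15 largest rises. tat, tyrosine aminotransferase, measured 0.0556, 0.0564 and 0.108 CPM at stage 40 and 75.7, 89.9 and 78.1 CPM at stage 47, with 31.4 CPM on average at stage 46. sds, serine dehydratase, rose from 0.667, 1.75 and 1.34 CPM to 353, 260.3 and 557 CPM, with a mean of 2.24 CPM at stage 45 and 27.2 CPM at stage 46. bhmt, which remethylates homocysteine, rose from 0.278, 0 and 0.26 CPM to 29.5, 25.3 and 29.7 CPM. The rule behind this ranking took only called genes without overlap between the stages, so their separation is no added result. slc7a2.2, a carrier of cationic amino acids, had no count at stage 40 and 8.04, 7.42 and 6.72 CPM at stage 47, at least 202-fold higher. rbp4, the retinol carrier, rose from 2.5, 2.09 and 2.23 CPM to 169, 119 and 158 CPM, and had reached a mean of 73.9 CPM by stage 44. tf, transferrin, rose 95.7-fold. These genes were chosen by the size of their rise and stand in no common list, so no direction is given for a group of them.

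Genes of energy metabolism went both ways. Of 24 glycolysis and creatine genes, 14 rose, 10 at least 2-fold, and 7 fell. pgk1, phosphoglycerate kinase, rose from 42.1, 39.1 and 41 CPM to 201, 231 and 208 CPM (log2 2.39 ± 0.08, adjusted p = 1.86e-17), and ldhb, a lactate dehydrogenase subunit, rose 4.35-fold. slc16a1, a lactate carrier, fell 1.9-fold. slc25a12, the mitochondrial aspartate and glutamate carrier, rose from 2.56, 2.71 and 2.31 CPM to 48.3, 55.6 and 51.7 CPM. Cholesterol synthesis genes fell in 17 of 22, 9 at least 2-fold, and rose in 4: lss, lanosterol synthase, fell from 39.1, 39.9 and 41.4 CPM to 12.2, 11.1 and 12 CPM, and insig1, a brake on the pathway, rose 1.44-fold. Over all 248 solute carriers measured, 116 rose (46.8%) and 86 fell (34.7%), 70 and 32 of them at least 2-fold. The called shares over all genes were 40.0% and 40.8%.

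Immune and barrier genes went in different directions by family. Of 26 interferon and MHC genes, 22 rose, 15 at least 2-fold, and 1 fell: ifit5, an interferon-induced protein, rose from 0.333, 0.226 and 0.195 CPM to 9.46, 9.49 and 9.64 CPM (log2 5.31 ± 0.23, adjusted p = 1e-15), and ifi30 fell 2.31-fold. Of 31 microglia and leukocyte genes sought, 14 were measured, of which 10 rose and 1 fell. Only 4 of the 14 were called higher by limma on the authors' quantile-normalized values, which are log2(CPM + 1). csf1r, a receptor of microglia, rose from 5.72, 7.84 and 8.97 CPM to 15.5, 15.4 and 17.1 CPM. The microglia marker spi1 was not called (log2 0.293 ± 0.245). Complement genes fell in 9 of 11: c3, the central component, fell from 214, 204 and 248 CPM to 36.5, 23.8 and 30.7 CPM, and cfi, which inactivates it, fell 10.2-fold. c4bpa and c8g rose 2.94-fold and 4.55-fold. Of the 4 endothelial markers, cdh5, pecam1 and kdr were not called, with log2 values of 0.06 ± 0.08, 0.13 ± 0.14 and 0.10 ± 0.14. The remaining marker, cldn5, was called higher, from 45.9, 38.8 and 45.4 CPM to 62.7, 69 and 59.2 CPM (log2 0.55 ± 0.08). Of 24 endothelium and barrier genes, 6 rose (25%) and 7 fell (29.2%), beside 40.0% and 40.8% over all genes. Only 1 changed at least 2-fold in each direction, and 11 were not called. slc2a1, the glucose carrier of the barrier, rose from 46.8, 59.2 and 57.5 CPM to 169, 155 and 153 CPM.

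Ventricular genes were split as well. Of 36 genes of motile cilia, 24 fell, 20 at least 2-fold, and 5 rose. foxj1, the master factor of motile cilia, fell from 14.6, 12.9 and 12.9 CPM to 4.34, 3.68 and 3.71 CPM, and rsph9, a radial spoke protein, fell 4.3-fold. dnah5, a dynein arm heavy chain, rose from 9, 6.94 and 7.29 CPM to 21, 17.6 and 20.9 CPM. Of 13 choroid plexus genes, 8 rose, 7 at least 2-fold, and 4 fell, 3 at least 2-fold. clic6, a chloride channel-like protein, rose from 2, 2.43 and 3.53 CPM to 47, 48.3 and 46.1 CPM (log2 4.04 ± 0.20, adjusted p = 1.74e-12). otx2 and msx1, factors of early choroid plexus formation, fell 2.14-fold and 3.55-fold.

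Genes of blood and pigment cells fell by large factors beside the brain genes. Of 12 red cell genes, 9 fell, all at least 2-fold, and 0 rose. The globin named hbz measured 52.2, 24.8 and 75.5 CPM at stage 40 and 0.0457, 0.0519 and 0.0927 CPM at stage 47, where its 4 counts over 3 libraries leave the size of the fall open to counting error, and hbe1 fell 49.1-fold. hbd and alas2, the enzyme of haem synthesis in red cells, were not called (259, 227 and 418 CPM against 294, 389 and 372 CPM for hbd, and 36.3, 29.8 and 48.2 CPM against 38.3, 51.1 and 45.6 CPM for alas2). So the globins hbz and hbe1 fell while the globin hbd overlapped, and stage 40 replicate 3 had the highest hbz and hbd values of its stage. Without that library hbd had a log2 value of 0.55 and alas2 0.46, both called. Globin names here follow mammalian genes, and near-identical copies may share reads. Of 10 melanocyte genes, 8 fell at least 2-fold: tyr, tyrosinase, went from 9.89, 19.6 and 15.6 CPM to 0.228, 0.207 and 0.51 CPM, and pmel from 36.9, 56.6 and 48 CPM to 4.16, 3.63 and 5.38 CPM. mitf, their lineage factor, which other cells also express, rose 2.82-fold. Retina genes fell in 13 of 19, 11 at least 2-fold, and rose in 3, all at least 2-fold. rpe65, of the pigment epithelium, fell from 57.7, 51.5 and 53.4 CPM to 7.63, 7.52 and 11.8 CPM.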

How the data were processed

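For the 18 untreated libraries the authors deposited gene-level read counts as whole numbers, and log2(CPM + 1) values after full-quantile normalization, as the deposited values themselves show. Per the labels, RNA was extracted with Trizol, selected for polyA and made into stranded libraries, and STAR 2.7.3 is named in the submitters' processing notes. The sources used here do not give the read counter, strand setting or genome build. Every deposited gene reached 1 CPM in at least 3 libraries, so the table had been filtered. The drug tables were not used.

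Counts were fitted in edgeR 4.0.16 under R 4.3.3 with TMM factors, filterByExpr (which removed 0 genes), stage means without covariates over 18 libraries, and the robust quasi-likelihood test of stage 47 against stage 40. A call is a Benjamini-Hochberg adjusted p under 0.05 over 16049 genes. On simulated counts for this contrast, 200 of 16043 genes were changed, in both directions. The test recovered 83.6% of changes of 1.5-fold, 88.1% at 2-fold and 100% at 4-fold, and 3.21% of 187 calls were false. In the data 80.8% of the genes were called, so these rates do not cover scaling when most genes change. A gene with 0 counts at a stage was bounded against 3 counts over that stage's 3 libraries.

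The 90 gene lists, by role or by symbol pattern, were chosen with earlier results of these data known, and 50 symbols caught by a pattern in error were dropped after values were seen. Each list is described by counts and medians, with no test of the list. Genes named by rule were the 15 largest rises and falls (called, mean log2 CPM 1 or more, no overlap), up to 4 called members per list with the lowest p, and all thyroid axis, pituitary and small-list members. Another 90 genes, mostly well-known members of the lists such as fos, npas4, grin1, nefh, plk1, kif11, eef1a1, hdac1, npy and sox2, were chosen after their values were seen. No usable symbol was given for 3135 genes (19.5%), which were tested and not named. Of 12914 with one, 12626 matched the RefSeq gene table. Markers klf1, tp63, grhl3, itln1, rho, rcvrn, cryaa, mip, bfsp1, matn1 and tnmd, promoters and coordinates were not analysed here, and a few list members are not reported here. Alternatives were other scalings and filters, fewer libraries, a replicate block, a test against 1.5-fold, DESeq2 1.42.0, and limma 3.58.1 on the deposited log2 values. Because these are log2(CPM + 1), limma differences of genes at low CPM are smaller by construction than those of edgeR.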

Additional observations from a re-analysis of the deposited data

How the results depend on the processing

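The calls of 6420 higher and 6553 lower genes kept within 1.5 times under each alternative run except the test against a 1.5-fold change, which left 4137 higher and 3783 lower. They were 6563 and 6390 with relative log expression scaling, 7030 and 5955 with upper-quartile scaling, 5077 and 5155 of 12187 genes with a mean of at least 5 CPM, 6386 and 6412 with only stages 40 and 47, 6475 and 6326 in DESeq2, and 6163 and 6670 in limma on the deposited quantile-normalized values. Leaving out 1 library gave between 6194 and 6375 higher and between 6218 and 6419 lower genes. Upper-quartile scaling moved the median of all genes from -0.015 to 0.094. With the replicate block there were 6398 higher and 6544 lower genes, of which 6372 and 6510 were the same. Deviations of same-numbered libraries of the 2 stages correlated at -0.106, 0.0234 and 0.00818. Libraries with different numbers correlated between -0.121 and 0.119. With 3 libraries per stage, these values cannot tell whether the numbers pair the samples. Of 507 named genes that were called, between 0 and 15 kept their sign but lost the call under the alternatives other than the 1.5-fold test, where 83 did. The run with a mean of at least 5 CPM held only 444 of the 539 named genes, and genes it left out are not counted. Only the limma alternative reversed named genes: slc1a3 had 0.02 there (-0.20 as reported), eef1a1 0.49 (-0.18) and rpl3 0.45 (-0.05); the cause was not tested. Medians of families near 0 (cytosolic ribosomal proteins, integrins, collagens, laminins, metalloproteinases, Netrin and Slit genes) changed sign under at least 1 alternative, and those of pituitary, keratin and epidermis lists did so with the 5 CPM filter, so no direction is given for them. Levels under 3 counts (0.0649 to 0.169 CPM by library) cannot be told from 0.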

Other observations

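Members of other gene families not described above also differed between stage 40 and stage 47. Of 34 nuclear receptors, 21 rose, 13 at least 2-fold, and 8 fell, with rarb, a retinoic acid receptor, up from 4.5, 5.93 and 7.61 CPM to 16.4, 17 and 17 CPM and rxrb, a common partner receptor, down from 139.6, 131 and 127 CPM to 67.6, 71.2 and 66.8 CPM. Of 20 phosphodiesterases, 14 rose, 12 at least 2-fold, and 3 fell, and of 19 regulators of G protein signalling, 12 rose, 10 at least 2-fold, and 4 fell. Of 11 connexins and pannexins, 5 rose (45.5%), all at least 2-fold, and 4 fell (36.4%), 3 at least 2-fold. Over all genes the called shares were 40.0% and 40.8%, and 21.4% and 16.9% were at least 2-fold higher and lower. The connexin gja7 fell from 157, 169 and 177 CPM to 15.3, 14.8 and 17.4 CPM. The pannexin panx2 rose from 0.389, 0.508 and 0.541 CPM to 14.8, 12.7 and 14 CPM. Among matrix genes, fn1, fibronectin, rose from 36.4, 56.9 and 64.5 CPM to 263, 248 and 224 CPM, and col4a5, a basement membrane collagen, fell from 226, 252 and 256 CPM to 65, 59 and 61.4 CPM. Among oxygen-binding proteins, ngb, neuroglobin, rose 3.29-fold and cygb, cytoglobin, rose from 139, 123 and 128 CPM to 303, 306 and 294 CPM.

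kdm6b, a histone demethylase, had no net difference called (369, 463 and 471 CPM against 452, 429.8 and 416 CPM) but means of 240.1 CPM at stage 42 and 692 CPM at stage 45. thdl18 had no count at stage 40, means of 4.74 CPM at stage 44 and 6.19 CPM at stage 45, and 0.457, 1.09 and 4.73 CPM at stage 47. krt61, a keratin, had no count at stage 40 and 9.82, 8.97 and 5.14 CPM at stage 47, at least 218-fold higher against a floor of 3 counts over the 3 stage 40 libraries.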
